A study of Mus musculus with 12 samples.

Results

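The 46 genes described here encode the proteins that join neighbouring epithelial cells to one another: the claudins, the other tight junction proteins, the epithelial cadherins and Epcam, the desmosome and the beta-group connexins. They were taken from the 37074 named genes of an Agilent expression array by a pattern of gene names, which uses no measured value. They comprised 23 claudins, 4 further membrane proteins of the tight junction (Ocln, F11r, Marveld2 and Marveld3), 4 proteins of its cytoplasmic plaque, 3 adhesion molecules (Cdh1, Cdh17 and Epcam), 6 desmosome genes and 6 connexins. The array carried 62 probes for them, and 13 genes had more than 1 probe. Each gene was read from its probe with the highest mean signal over all arrays.

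RNA came from the cecum of C57BL/6 mice (the study's methods), for which the labels name no altered gene. The cecum was cauterized with bipolar forceps, a model of postoperative adhesion, and tissue was collected 3, 12 or 72 h later. Controls had a sham operation, for which the study's methods give a time of 0 h and the sample labels give no separate time. Each of the 4 groups had 3 arrays, 12 in all, each from total RNA of cecum tissue. The study describes the arrays of a group as biological triplicates, but nothing says whether each came from 1 animal or from a pool. The p-values therefore measure the spread between arrays, which may be partly technical. The labels give all mice as male. On the arrays, however, Xist was well above background on 12 of 12, Ddx3y and Eif2s3y on 0, Uty on 1 and Kdm5d on 12, so the sex-linked genes conflict with each other, and Xist, Ddx3y and Eif2s3y go against the label. None of these 3 genes separates the groups.

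Epithelial cells are held together by a row of junctions. At the apical end, claudins and occludin seal the gap between cells and, in the case of some claudins, form pores that let chosen ions or water through; the zonula occludens proteins and cingulin tie them to actin. Below lie the cadherin-based adherens junctions and the desmosomes, which carry mechanical load, and connexins form channels that pass small molecules from cell to cell. In the intestine these complexes keep bacteria and luminal contents out of the tissue.

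A level is the log2 of the processed signal minus the log2 of the array's 75th percentile signal, so 0 marks a probe as bright as that percentile. Levels of different probes cannot be ranked against each other. A gene was called changed when the fold was above 2 (1 on the log2 scale) and limma's p-value, adjusted by Benjamini-Hochberg over all 56605 probes, was below 0.05. The standard error (SE) of each difference is that of the same limma fit, and every group mean is over n = 3 arrays. Between 62.0% and 66.8% of probe spots were well above background on each array, no spot was saturated, and arrays of 1 group correlated at 0.985 to 0.992. The sham and 3 h arrays and 2 of the 12 h arrays were on 1 slide, and the third 12 h array was on a second slide with all 72 h arrays. The 72 h group can therefore be separated from its slide through 1 array alone.

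Of the 46 genes, 37 were well above background on all 12 arrays and 40 on all arrays of at least 1 group. Cldn6, Cldn16, Cldn19 and Gjb6 were not well above background on any array. The other 5 were seen on some arrays: Cldn10 on 10, Cldn13 on 9, Cldn11 on 4, Cldn22 on 3 and Cldn17 on 1. All 15 markers of intestinal epithelium, among them Vil1, Krt8 and Lgals4, were well above background on every array, so the labelled tissue was there to be measured.

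Most junction genes stood slightly higher early and lower late. Over the 37 genes measured on every array, the log2 difference from sham had a median of 0.26 at both 3 and 12 h and of -0.42 by 72 h, whereas the medians over the 20819 genes measured on every array were 0.01, -0.06 and -0.14. At 3 h, 27 of the 37 were above sham, against 50.7% of those 20819 genes, and at 12 h 23 were, against 44.6%. At 72 h only 7 were, against 36.8%. In all, 22 of the 37 lay above sham at 3 h and below it at 72 h. Under quantile normalization the median of all probes at 72 h moved from -0.15 to -0.02 and the median of the 37 genes from -0.42 to -0.34. With slide as a block, the 72 h median of the 37 genes was -0.21 and that of all probes -0.23, so they no longer lay below the rest. The 12 h median was 0.067 under normexp background correction, 0.15 with the mean of a gene's probes, 0.17 without sham replicate 3 and 0.095 without 12 h replicate 1. In bulk tissue, fewer epithelial cells and less RNA of these genes per cell cannot be told apart.

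**Figure D1:**
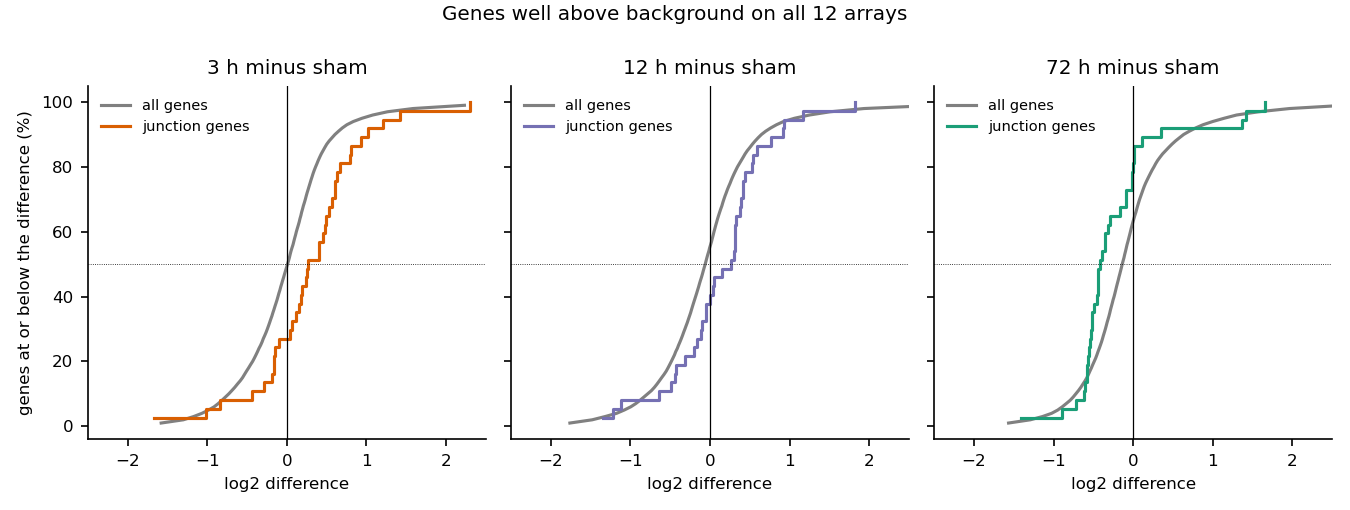
Cumulative share of genes (vertical axis, in %) at or below each log2 difference from sham (horizontal axis) at 3, 12 and 72 h, for the 37 junction genes (coloured steps) and all 20819 genes (grey line) measured on every array. The junction curve lies to the right of the grey line over most of its middle at 3 and 12 h and to its left at 72 h, where 30 of the 37 genes are below 0.

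Few of these shifts passed the fold threshold. At 3 h, 9 of the 46 genes were called, 4 higher and 5 lower, beside 7.37% of all genes (3.26% higher and 4.11% lower). At 12 h, 7 were called, 2 higher and 5 lower, beside 9.06% (4.1% and 4.96%). At 72 h, 5 were called, 3 higher and 2 lower, beside 8.85% (4.55% and 4.3%). Cldn2 was called higher and Cldn22 lower at all 3 times, and 11 genes were called at 1 or more of them. An F-test over the 4 groups passed for 28 of the 46, against 39.3% of all genes and 57.3% of the genes measured on every array.

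**Figure D2:**
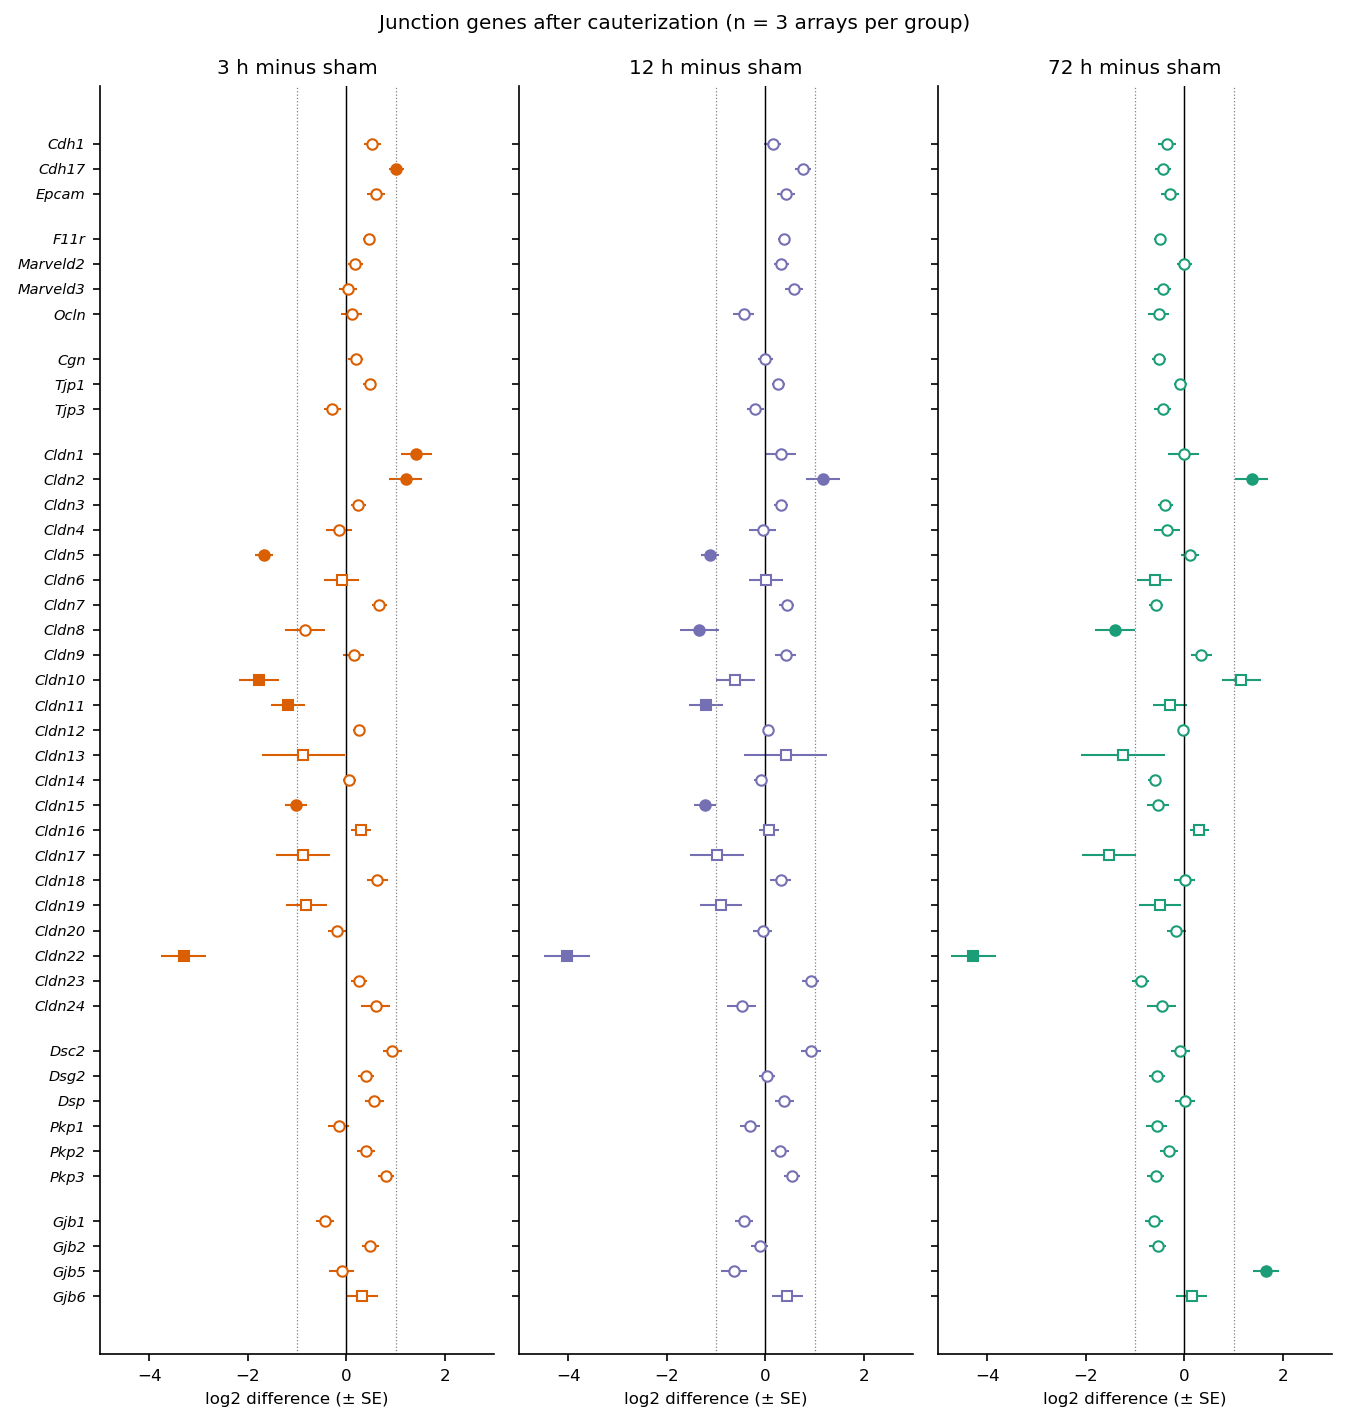
Log2 difference from sham with its SE (horizontal axis) for the junction genes reported here (rows, grouped as adhesion molecules, tight junction membrane, tight junction plaque, claudins, desmosome and connexins), at 3, 12 and 72 h. Filled symbols are called genes, squares are genes not well above background on all 12 arrays, and dotted lines mark a fold of 2. Most genes lie between the dotted lines at every time, with Cldn2 to the right and Cldn22 far to the left.

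The adhesion molecules stood above sham at 3 and 12 h and below it at 72 h. Cdh17, the cadherin of intestinal epithelium, had levels of 3.05, 3.18 and 3.28 in sham, 4.29, 4.05 and 4.21 at 3 h, then 3.91, 4.06 and 3.82 at 12 h, and lastly 2.37, 2.93 and 2.90 at 72 h. All arrays at 3 and 12 h were above all sham arrays, and all 72 h arrays were below them. It rose 2.02-fold at 3 h (log2 1.02, SE 0.16, limma adjusted p = 0.00207) and was 2.29-fold lower at 72 h than at 12 h (adjusted p = 0.00111). Its second probe gave smaller early differences, 0.30 at 3 h, -0.22 at 12 h and -0.96 at 72 h, and the 3 h call was lost when both probes were averaged (log2 0.66), under quantile normalization (0.79) and without sham replicate 1 (0.96). Cdh1, the E-cadherin of adherens junctions, differed by 0.53, 0.15 and -0.35 at the 3 times, and Epcam, an epithelial adhesion molecule that binds claudins, by 0.61, 0.42 and -0.29, with no call at any of them.

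None of the tight junction proteins outside the claudins was called against sham. F11r, the junctional adhesion molecule JAM-A, differed by 0.45, 0.38 and -0.49, and Tjp1, the scaffold ZO-1, by 0.47, 0.26 and -0.08. Ocln, occludin itself, differed by 0.11, -0.44 and -0.52, with an adjusted p of 0.121 or more in limma at each time. Tjp3 stood below sham throughout, at -0.29, -0.20 and -0.44, and its gene overlaps the protein-coding gene Apba3.

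Marveld3, a relative of occludin, reached its highest level at 12 h. Its levels were 2.60, 2.64 and 2.43 in sham, 2.65, 2.42 and 2.70 at 3 h, then 3.12, 3.32 and 2.99 at 12 h, and lastly 1.70, 2.31 and 2.33 at 72 h. The 12 h arrays were above and the 72 h arrays below those of every other group. The drop from 12 to 72 h was 2.04-fold (log2 -1.03, SE 0.18, limma adjusted p = 0.00395), and its 2 other probes gave -0.97 and -0.89 for the same step, just short of the fold threshold. The call was also lost under quantile normalization (-0.93) and without 72 h replicate 1 (-0.82) or 12 h replicate 2.

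Of the 23 claudins, 15 were measured on all arrays, and they moved in both directions. Against sham, 2, 1 and 1 of all 23 claudins were called higher at the 3 times, in order. Those called lower numbered 5, 5 and 2 of the 23, but 2, 3 and 1 among the 15. The other lower calls were of Cldn10, Cldn11 and Cldn22, which were not well above background on every array. Beside these, 3.26%, 4.1% and 4.55% of all genes were called higher and 4.11%, 4.96% and 4.3% lower. Cldn1 and Cldn2 were the claudins called higher. Cldn1 is a sealing claudin, and Cldn2 forms pores for cations and water. The 250 bases upstream of the annotated start of each are shown because both were called higher at 3 h, and they diverged after it. The sequences are RefSeq's (GRCm38.p6), written 5′ to 3′ on the gene's strand, from chr16:26371840-26372089 on the minus strand for Cldn1 and chrX:139800558-139800807 on the plus strand for Cldn2. Capitals mark matches to any of 5 motifs searched on both strands.
Cldn1: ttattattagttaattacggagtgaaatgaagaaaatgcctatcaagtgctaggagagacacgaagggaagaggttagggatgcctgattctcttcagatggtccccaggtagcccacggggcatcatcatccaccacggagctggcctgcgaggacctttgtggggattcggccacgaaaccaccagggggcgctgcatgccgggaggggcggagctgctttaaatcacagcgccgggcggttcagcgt
Cldn2: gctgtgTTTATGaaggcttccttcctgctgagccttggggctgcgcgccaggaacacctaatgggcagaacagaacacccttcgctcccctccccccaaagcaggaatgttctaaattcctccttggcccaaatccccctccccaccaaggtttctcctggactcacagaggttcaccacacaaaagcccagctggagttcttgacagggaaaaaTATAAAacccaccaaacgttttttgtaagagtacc

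The 5 motifs were TTCNNNGAA for STAT factors, TGANTCA for AP-1, CAGGTG for the E-box bound by Snail, TTTATG for the intestinal CDX factors and TATAAA for the TATA box. Cldn2 held TTTATG 244 bases and TATAAA 35 bases before its start. Cldn1 held none of the 5 in this window. Among all 32851 promoter windows of this length, 7.02% held the STAT motif, 6.75% the AP-1 motif, 17.2% the E-box, 10.8% the CDX motif and 12.4% the TATA box. Windows were on hand for 31 of the 46 genes, 45 in all since some genes have several starts, and 4, 3, 11, 3 and 5 of these held the same motifs in that order. These are matches of letters and say nothing of binding.

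Cldn1 had levels of -2.08, -2.5 and -2.51 in sham, -0.70, -1.01 and -1.10 at 3 h, then -1.54, -2.80 and -1.81 at 12 h, and lastly -2.60, -2.61 and -1.92 at 72 h. Only the 3 h arrays stood clear of sham; at 12 and 72 h the groups overlapped with it. The rise at 3 h was 2.68-fold (log2 1.42, SE 0.31, limma adjusted p = 0.0114), and at 72 h the gene was 2.71-fold below 3 h (adjusted p = 0.00706). The fall from 3 to 12 h, -1.11 on the log2 scale, had an adjusted p of 0.0572. The 3 h call was lost under normexp (log2 0.79).

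Cldn2 had levels of -0.93, 0.35 and 0.52 in sham, 1.51, 1.21 and 0.84 at 3 h, then 1.15, 1.35 and 0.97 at 12 h, and lastly 1.12, 1.58 and 1.34 at 72 h. No treated array overlapped with sham, and the 3 treated groups overlapped with each other. The gene was 2.31-fold higher than sham at 3 h, 2.26-fold at 12 h and 2.58-fold at 72 h (SE 0.34 on the log2 scale each, limma adjusted p = 0.0333, 0.0336 and 0.0186). Sham replicate 1 lay far below the other sham arrays, and without it the log2 differences were 0.75, 0.72 and 0.91 and none was called. Slide as a block ended the 12 h and 72 h calls (adjusted p = 0.0531 and 0.207), and within slide 1 the 3 h and 12 h calls were lost (adjusted p = 0.0768 and 0.0908). The second probe gave 0.97, 0.73 and 0.94.

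Cldn5, the claudin of blood vessel endothelium, fell and came back. Its levels were 0.75, 0.64 and 0.38 in sham, -1.07, -1.10 and -1.09 at 3 h, then -0.44, -0.77 and -0.38 at 12 h, and lastly 0.79, 1.04 and 0.29 at 72 h. The 3 and 12 h arrays were below every sham array and apart from each other, and the 72 h arrays overlapped with sham. It fell 3.20-fold at 3 h (log2 -1.68, SE 0.19, limma adjusted p = 0.000373) and was 2.18-fold below sham at 12 h (adjusted p = 0.00232), then rose 2.36-fold from 12 to 72 h (adjusted p = 0.00211). The last step lost its call with slide as a block (log2 1.09, adjusted p = 0.06), and the 12 h call was lost under normexp (-0.91).

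Endothelial markers were higher late. Of 12 endothelial markers, all well above background on every array, 0 were called at 3 or 12 h in the limma fit. At 72 h 5 were called higher, beside 4.55% of all genes. These were Cdh5 by 1.76, Esam by 1.49, Egfl7 by 1.37, Tie1 by 1.23 and Emcn by 1.09 on the log2 scale. The median differences of the 12 markers at the 3 times were -0.31, -0.26 and 0.42. At 72 h their median relative to sham was 1.08 on replicate 1, 0.39 on replicate 2 and 0.19 on replicate 3. Their summed level, on a scale where 1 is the array's 75th percentile, was 21.7 to 22.3 in sham, 15.9 to 20.7 at 3 h, then 19.6 to 22.4 at 12 h and lastly 29.3 to 68.7 at 72 h. Their part in the Cldn5 result was not tested.

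Cldn22, a claudin of little studied function, gave the widest differences. Its levels were -2.84, -2.56 and -3.74 in sham, where all 3 arrays were well above background. They were -7.11, -6.85 and -5.11 at 3 h, then -7.11, -7.16 and -6.97 at 12 h, and lastly -7.46, -7.18 and -7.37 at 72 h, where none was. The fitted log2 differences were -3.31, -4.03 and -4.29 (limma adjusted p = 0.0012, 0.000282 and 0.000284), but they run against unmeasured levels. As bounds on the processed signal, which these p-values do not test, the gene was at least 3.19-fold lower at 3 h, 3.78-fold at 12 h and 4.24-fold at 72 h. These bounds set the sham mean against each dim array's lowest signal among probes well above background, or the probe's own where higher. With slide as a block it was the 1 gene still called at 72 h (adjusted p = 0.0329). Normexp background correction, which draws dim signals together, gave log2 differences of -0.36, -0.58 and -0.76, smaller than these bounds and not called, so the size of the fall depends on how background is handled.

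Some markers of mesothelium, the cell layer that covers the outside of the gut, were also lower at the early times. Of 8 such markers, 3 were called lower at 3 h and at 12 h, beside 4.11% and 4.96% of all genes. These were Upk3b by -4.15 and -4.21, Lrrn4 by -3.58 and -4.14 and Rspo1 by -2.95 and -2.42 on the log2 scale. Upk3b and Lrrn4 were above background on 0 arrays at those times, so these fitted values run against unmeasured levels. At 72 h both were measured again, with differences of 0.02 and 0.88, while Cldn22 was not. Of the 4 markers measured on all arrays, 3 were above sham at 3 h and at 12 h, with medians of 0.27 and 0.11. At 72 h, 4 of the 8 were called higher, among them Wt1 by 4.40, beside 4.55% of all genes. The summed level of the 8 was then 10.04 to 18.2, against 5.71 to 8.23 in sham, 6.43 to 7.20 at 3 h and 5.80 to 6.62 at 12 h. Bnc1 was the marker not above background in sham. Their part in the claudin results was not tested.

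Cldn10, which forms ion-selective pores, was called lower at 3 h and rose from 12 to 72 h. Its levels were -3.04, -3.44 and -3.34 in sham, -5.77, -4.85 and -4.51 at 3 h, then -3.52, -4.64 and -3.48 at 12 h, and lastly -1.55, -2.21 and -2.57 at 72 h. The 3 h arrays were below and the 72 h arrays above every sham array, and at 3 h 1 of the 3 was well above background, so the early fold rests in part on unmeasured levels. It fell 3.42-fold at 3 h (log2 -1.78, SE 0.40, limma adjusted p = 0.0127) and rose 3.41-fold from 12 to 72 h (adjusted p = 0.0139), while 72 h against sham gave 1.16 with an adjusted p of 0.0691. The 3 h call was lost under normexp (log2 -0.23) and without sham replicate 1 (adjusted p = 0.0515), and the later one without 72 h replicate 1 (adjusted p = 0.0537) and with slide as a block (adjusted p = 0.232).

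Cldn15, which forms cation pores in the intestine, was lower at both early times. Its levels were 3.66, 3.79 and 3.26 in sham, 2.93, 2.59 and 2.11 at 3 h, then 2.13, 2.48 and 2.43 at 12 h, and lastly 2.81, 3.13 and 3.17 at 72 h. No treated array reached the sham range. It fell 2.03-fold at 3 h and 2.33-fold at 12 h (log2 -1.02 and -1.22, SE 0.22, limma adjusted p = 0.0102 and 0.00334), and the 72 h difference was -0.53 (adjusted p = 0.124). The 3 h call was lost without sham replicate 1 (log2 -0.98), sham replicate 2 (-0.91) or 3 h replicate 3 (-0.81). Cldn11, best known from myelin, was well above background on 2 sham arrays and on 0 at 3 and 12 h. Its fitted log2 differences there were -1.19 and -1.21 (limma adjusted p = 0.0372 and 0.0315), against unmeasured levels. With the dim arrays raised to the lowest signal well above background, the sham mean was 1.17-fold and 1.39-fold higher. These are not strict bounds, since not every sham array was measured.

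Cldn8, a claudin that limits sodium leak in the distal gut, was called lower late. Its levels were 0.33, 0.39 and 0.43 in sham, 0.16, -0.36 and -1.19 at 3 h, then -0.42, -0.72 and -1.73 at 12 h, and lastly -1.56, -0.94 and -0.58 at 72 h. Every treated array was below every sham array, and the treated groups spread widely and overlapped. The fall was 2.53-fold at 12 h and 2.65-fold at 72 h (limma adjusted p = 0.04 and 0.0342). Its adjusted p lay close to the threshold: leaving out any 1 sham array took both calls away, and with slide as a block the 72 h difference was -0.24.

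Cldn23 and Cldn7 were called in the step from 12 to 72 h. Cldn23, another claudin of colonic epithelium, had levels of 3.14, 3.02 and 2.70 in sham, 3.24, 3.14 and 3.26 at 3 h, then 3.87, 3.81 and 3.93 at 12 h, and lastly 1.69, 2.26 and 2.24 at 72 h. The 12 h arrays were above, and the 72 h arrays below, those of every other group. The step was 3.50-fold down (log2 -1.81, SE 0.17, limma adjusted p = 0.000232) and stayed called with slide as a block (adjusted p = 0.00622), while the differences from sham, 0.92 at 12 h and -0.89 at 72 h, stayed within the fold threshold. Cldn7, an abundant intestinal claudin, was 2.02-fold lower at 72 h than at 12 h, and its second probe gave -1.39 for that step and was called higher than sham at 12 h (1.04), where the first gave 0.44.

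The remaining claudins changed little or were too dim. Cldn3, Cldn4, Cldn9, Cldn12, Cldn14, Cldn18 and Cldn20 were measured on all arrays and not called in any contrast, with differences from sham between -0.60 (Cldn14 at 72 h) and 0.63 (Cldn18 at 3 h). Cldn24 was called lower at 12 h than at 3 h (log2 -1.09, limma adjusted p = 0.0491), a call that was lost under 18 of 27 alternatives. Its probe is annotated to a cDNA clone rather than to the Cldn24 transcript, and the probe for that transcript was above background on 0 arrays, so which RNA this value reads is uncertain.

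**Figure D3:**
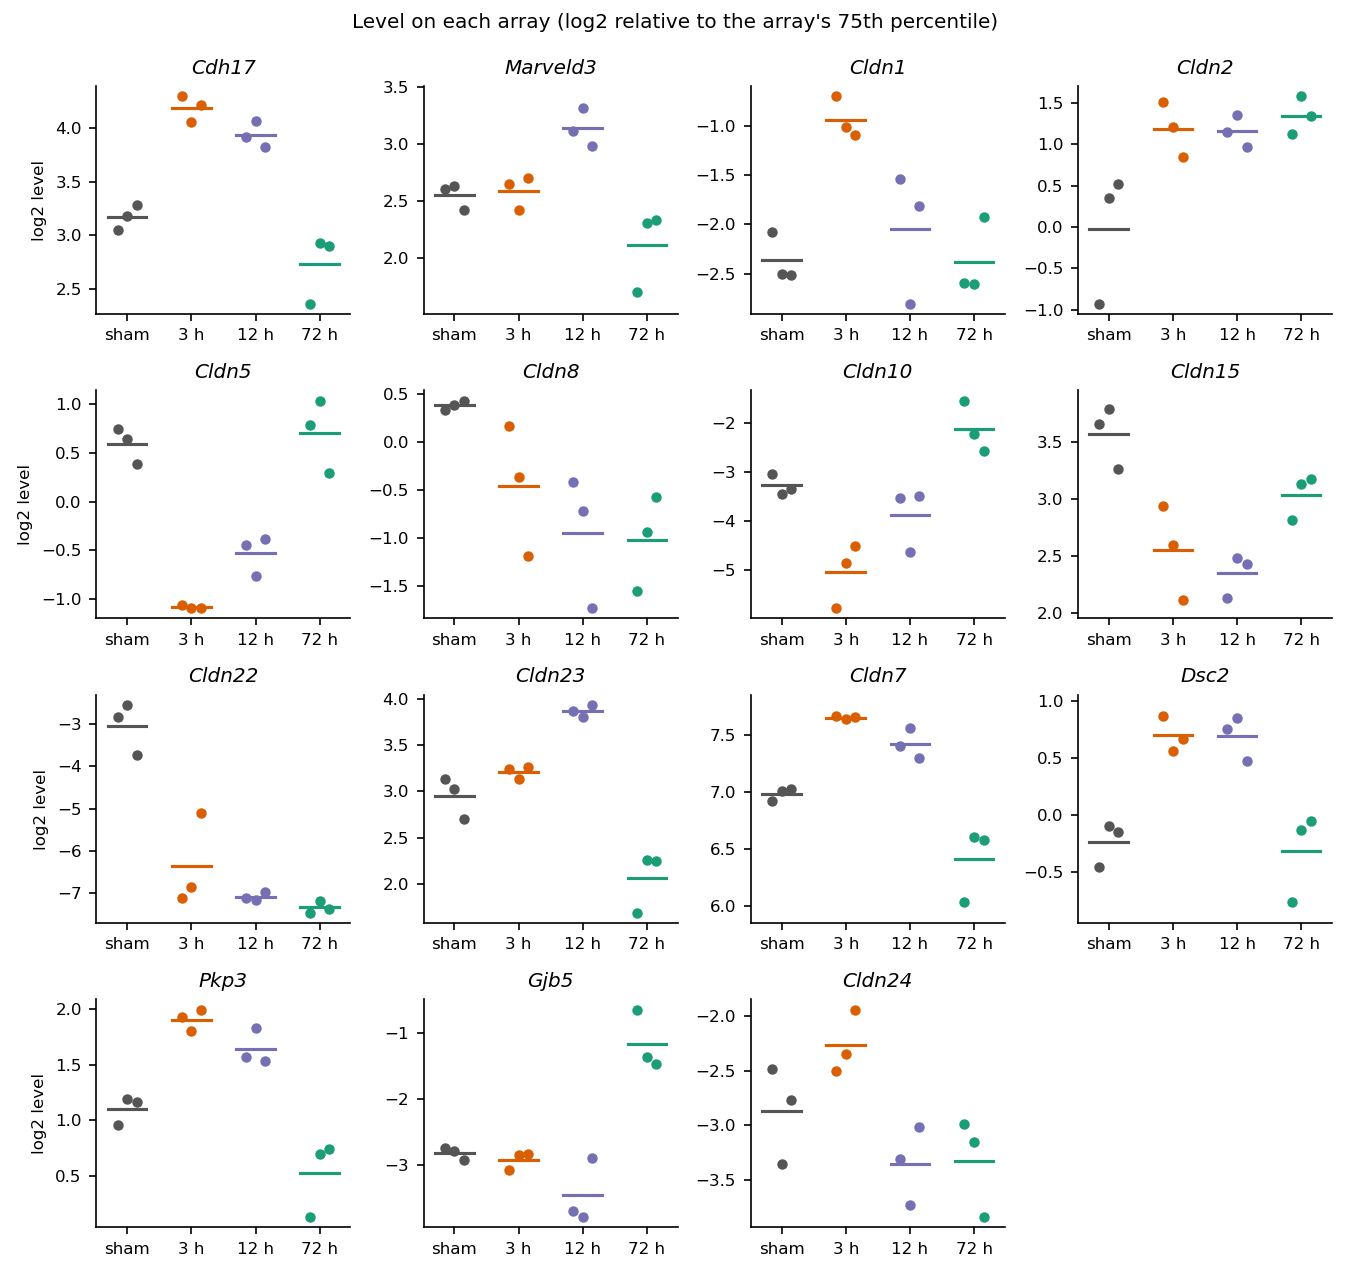
Level on each of the 12 arrays (points) and group means (bars) for 15 junction genes, in log2 units relative to the array's 75th percentile, each panel on its own vertical scale. Cldn2 stays above sham at all 3 times, Cldn5 and Cldn10 dip and rise again by 72 h, and Cldn22 drops and stays down. Cdh17, Cldn23, Dsc2 and Pkp3 are highest at 3 or 12 h and lower at 72 h.

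The 6 desmosome genes gave no call against sham, and 2 were called in the step from 12 to 72 h. Dsc2, the desmosomal cadherin desmocollin, had levels of -0.45, -0.09 and -0.14 in sham, 0.87, 0.57 and 0.67 at 3 h, then 0.76, 0.85 and 0.48 at 12 h, and lastly -0.76, -0.13 and -0.05 at 72 h. The early arrays were all above the sham and 72 h arrays, which overlapped with each other. Its differences from sham, 0.93 at 3 h and 0.93 at 12 h, passed the adjusted p (0.00949 and 0.00838 in limma) but not the fold. With slide as a block, and within slide 1, the 12 h difference was 1.04 and called (adjusted p = 0.0108 and 0.00586). In the fit without the block, from 12 to 72 h it fell 2.01-fold (adjusted p = 0.00716).

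Pkp3, a plakophilin that links desmosomal cadherins to desmoplakin, had levels of 0.96, 1.19 and 1.16 in sham, 1.93, 1.80 and 2.0 at 3 h, then 1.57, 1.83 and 1.54 at 12 h, and lastly 0.13, 0.70 and 0.75 at 72 h. All early arrays were above and all 72 h arrays below the sham arrays. From 12 to 72 h it fell 2.17-fold (log2 -1.12, SE 0.17, limma adjusted p = 0.00206). Without 72 h replicate 1 the steps of Dsc2 and Pkp3 were -0.79 and -0.92 and neither was called. Dsp, desmoplakin, differed from sham by 0.57, 0.39 and 0.01, and Dsg2, desmoglein, by 0.40, 0.03 and -0.56. Pkp1 differed by -0.16, -0.31 and -0.56.

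The probes of Pkp2 disagreed. The brightest gave 0.41, 0.30 and -0.31 at the 3 times, while the 2 others gave -0.64 and -0.81 at 3 h, and 1 of them was called lower at 72 h (-1.22). No direction is given for Pkp2 for this reason. Over the 11 genes with further probes measured on all arrays, 31 of 39 pairs of a probe and a time had the same sign as the brightest probe, and 8 had the other sign.

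**Figure D4:**
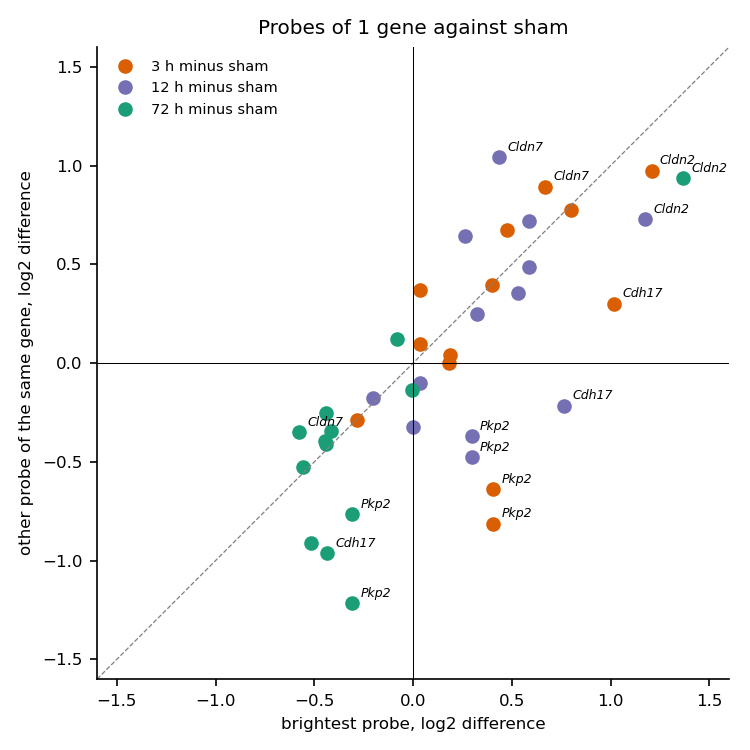
Log2 difference from sham of the brightest probe (horizontal axis) against that of each other probe of the same gene (vertical axis), for 13 further probes of 11 genes at 3, 12 and 72 h, with the line of equality dashed. The Pkp2 points at 3 and 12 h and the Cdh17 point at 12 h lie right of 0 and below it, whereas both Cldn2 probes are positive at all times.

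Among the connexins, Gjb5, best known from skin, was called higher late. Its levels were -2.74, -2.78 and -2.92 in sham, -3.07, -2.85 and -2.82 at 3 h, then -3.69, -3.78 and -2.89 at 12 h, and lastly -0.64, -1.36 and -1.46 at 72 h. The 72 h arrays were above all others and the other groups overlapped. It was 3.16-fold above sham at 72 h (log2 1.66, SE 0.26, limma adjusted p = 0.00201) and 4.93-fold above 12 h (adjusted p = 0.000532). Under normexp the first was 0.76 and not called. With slide as a block it became 0.81 (adjusted p = 0.26), whereas the second stayed called (1.73, adjusted p = 0.0136). Gjb1, a connexin of liver, differed from sham by -0.43 to -0.62 and Gjb2, a connexin of many epithelia, by 0.49, -0.12 and -0.54.

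Some markers of squamous epithelium were called higher at the same or earlier times. Of 9 squamous markers, 3 were called higher at each early time and 2 at 72 h. The share of all genes called higher at the 3 times was 3.26%, 4.1% and 4.55%. Of the 7 markers measured on all arrays, 3 were below sham at 3 h, 4 at 12 h and 5 at 72 h. Their median at 72 h was -0.41. Krt13 rose by 3.90, 3.37 and 2.24 on the log2 scale and Krt14 by 1.18, 2.06 and 3.00, while Lor rose by 1.94 at 3 h and 1.24 at 12 h. The summed level of the 9 was 9.05 to 10.1 in sham, 9.74 to 10.1 at 3 h, 8.51 to 8.80 at 12 h and 7.77 to 8.36 at 72 h. Krt13 was not above background in sham, so its differences are fitted values, and Ivl was not in any group. Their part in the Gjb5 result was not tested.

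Between neighbouring times, more genes were called from 12 to 72 h than from 3 to 12 h. Between 3 and 12 h, 1 of the 46 genes was called (Cldn24, lower), beside 3.46% of all genes (1.89% higher and 1.56% lower). Between 12 and 72 h, 9 were called, 3 higher (Cldn5, Cldn10 and Gjb5) and 6 lower (Cdh17, Cldn7, Cldn23, Dsc2, Marveld3 and Pkp3), beside 7.52% of all genes (4.33% higher and 3.19% lower). With slide as a block, only Cdh17, Cldn23 and Gjb5 stayed called in that step. Between 3 and 72 h, 12 were called, 3 higher and 9 lower, beside 11.7% of all genes (6.19% higher and 5.51% lower), with Gjb2 among those lower. The comparisons share arrays, so the calls are not independent. By adjusted p alone, with no fold threshold, 23 of the 46 were lower at 72 h than at 3 h, against 26.8% of all genes.

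One 72 h array carried part of the late fall. Replicate 1 of the 72 h group was the lowest of its group for 32 of the 37 genes, and their median on it was -0.74 relative to sham, against -0.24 on each of the other two. Without it, 4 genes in place of 9 were called from 12 to 72 h, and the median of the 37 at 72 h against sham was -0.23. The 15 epithelial markers behaved alike on these arrays: their median relative to sham was -0.91 on that array and -0.47 and -0.42 on the others. Their summed level was 3023 to 3177 in sham, 3822 to 3898 at 3 h, 2716 to 3294 at 12 h and 1637 to 2226 at 72 h.

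**Figure D5:**
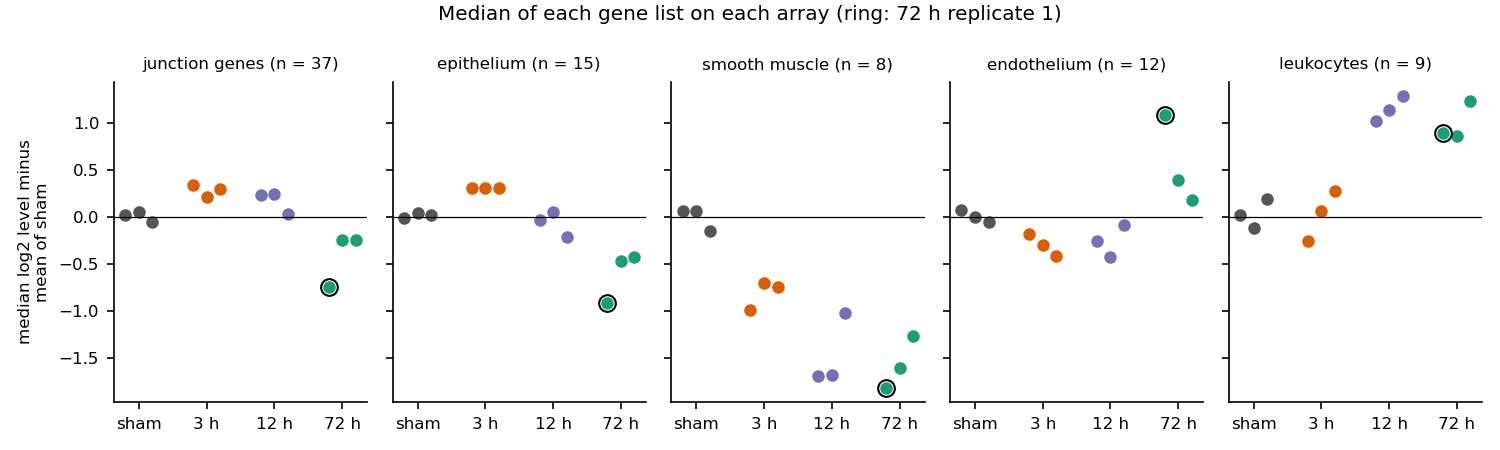
Median over a gene list of the log2 level minus the mean of the sham arrays (vertical axis), for each of the 12 arrays (points) by group, for the 37 junction genes and for markers of epithelium, smooth muscle, endothelium and leukocytes. The ring marks 72 h replicate 1, which is lowest for junction genes, epithelium and smooth muscle and highest for endothelium.

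Markers of other cell types changed over the same times. Among the epithelial markers, Krt18 was called higher at 3 h (1.17), Slc26a3 lower at 12 h (-1.81), and Car1, Fabp2 and Slc26a3 lower at 72 h (-1.63, -1.53 and -1.59). The median difference of the 15 was 0.31, -0.0042 and -0.56 at the 3 times. Of 8 smooth muscle markers, 2 were called lower at 3 h, 8 at 12 h and 7 at 72 h. Of all genes, 4.11%, 4.96% and 4.3% were called lower at these times and 3.26%, 4.1% and 4.55% higher. The summed level of the 8 smooth muscle markers was 557 to 596 in sham. It was 303 to 366 at 3 h, 175 to 280 at 12 h and 203 to 268 at 72 h. The summed level of 9 leukocyte markers was 118 to 137 in sham and 355 to 582, 833 to 855 and 385 to 659 later. Those sums were led by S100a8 and S100a9, which were 10.8 and 10.1 above sham at 3 h on the log2 scale, S100a8 being well above background on 11 of 12 arrays. Of the 8 leukocyte markers measured on all arrays, 5 were below sham at 3 h (median -0.06) and 4 at 72 h. The summed level of 5 fat markers ran from 16.0 to 30.9 in sham and from 8.41 to 156 at 72 h, where it was 156 on replicate 1, 81.6 on replicate 2 and 8.41 on replicate 3. The part of these markers in the junction results was not tested.

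Partners of the junction proteins were listed separately. Of 26 tight junction partners, 3 were called at 3 h, 1 at 12 h and 3 at 72 h, beside 7.37%, 9.06% and 8.85% of all genes. From 12 to 72 h 8 were called, 4 in each direction, beside 7.52%, and from 3 to 72 h 7 were, beside 11.7%. Pard6b, a polarity protein, rose at 3 h (1.30) and the tricellular junction protein Ildr2 fell at 3 h (-1.49) and rose at 72 h (2.19), when Ildr1 fell (-1.0). Of 11 adherens junction partners, Cdh3, P-cadherin, fell at 3 h (-1.32) and rose at 72 h (1.86). Of 12 desmosome partners, Ppl was called higher at 3 h (1.01), and Dsc1 was called lower at 72 h, where it was well above background on 0 arrays. The 7 desmosome partners measured on all arrays had a median of 0.62 at 3 h, 0.31 at 12 h and -0.11 at 72 h.

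Of 14 connexins outside the beta group, 7 were measured on all arrays. Against sham, 3 of the 14 were called at 3 h, 1 higher and 2 lower. At 12 h 2 were called, 1 in each direction, and at 72 h 1 was called higher. The share of all genes called at these times was 7.37%, 9.06% and 8.85%. Gja1, the connexin of smooth muscle and many other cells, rose at all 3 times (1.18, 1.09 and 1.56). Among 14 transcription factors and splicing regulators of epithelial identity, Grhl1 rose at 3 h (1.63), and Grhl1, Cdx2 and Ovol1 fell at 72 h (-1.04, -1.01 and -1.10). All 14 lay below sham at 72 h, with a median of -0.59, and so did 13153 of the 20819 genes measured on every array, whose median was -0.14. Of 7 repressors of epithelial genes, Snai1 was called higher at 12 and 72 h (2.64 and 2.09) and Zeb2 and Twist2 at 72 h (1.17 and 1.22). At 3, 12 and 72 h, 3.26%, 4.1% and 4.55% of all genes were called higher and 4.11%, 4.96% and 4.3% lower. None of the 4 membrane serine proteases and inhibitors St14, Prss8, Spint1 and Spint2 was called against sham in the limma fit.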

How the data were processed

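Each of the 12 arrays was a 1-colour (Cy3) Agilent mouse expression array. The authors deposited Agilent Feature Extraction 11.5.1.1 output, whose intensity values are background-subtracted and not scaled between arrays, and a GeneSpring table in which the authors had put log2 values relative to each array's 75th percentile, with each probe's median also taken off. Here log2 processed signal minus the array's log2 75th percentile was used, after control and outlier spots were left out, and the deposited table served as an alternative. Spots of 1 probe were averaged. Group means were fitted with limma 3.58.1 (R 4.3.3) over all 56605 probes and 4 groups, with the study's own thresholds (fold above 2, adjusted p-value below 0.05). The number of arrays limits the precision.

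In data simulated for 37074 genes, 200 of them changed by 1.5 on the log2 scale, this test recovered 86.5% at 3 h, 87% at 12 h and 86.5% at 72 h. Values on every array were given for genes called against sham or between neighbouring times, in a class with over 6 such genes for the 6 with the widest difference from sham. Cldn15 and Cldn23 were added after their values were seen. Other members were given by range or difference, and some genes, counted among the members and lists, are not reported here. The members and lists were chosen with earlier results of these data known. Probe coordinates are on mm9 and the promoter windows on GRCm38.p6, and the 2 were not mixed. Nothing ties the replicate numbers to shared animals or days. Alternatives covered scaling, background, probe choice, slide, replicate number, test and each array in turn.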

Additional observations from a re-analysis of the deposited data

Results flagged for a closer look

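For 10 differences between neighbouring times, the effects of both times against the same sham arrays differed in a direct limma contrast past the thresholds. From 3 to 12 h this was Cldn24 (log2 -1.09). From 12 to 72 h it was Cldn23 (-1.81), Cdh17 (-1.20), Pkp3 (-1.12), Marveld3 (-1.03), Dsc2 (-1.01) and Cldn7 (-1.01), which ended lower, and Gjb5 (2.30), Cldn10 (1.77) and Cldn5 (1.24), which ended higher. With slide as a block, Cdh17, Cldn23 and Gjb5 stayed called from 12 to 72 h. With 3 arrays a group, no single array was tested for standing apart.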

How the results depend on the processing

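For the 29 named differences, 627 recomputed values kept their call, 170 lost it and 0 changed sign. Counts of called junction genes are given for 3, 12 and 72 h against sham, then 12 h against 3 h, 72 h against 12 h and 72 h against 3 h. They were 9, 7, 5, 1, 9 and 12 as reported. Normexp background correction gave 3, 1, 2, 0, 5 and 6. Limma's treat at 2-fold gave 2, 1, 1, 0, 1 and 1, and dropping the fold threshold gave 16, 13, 14, 2, 18 and 26. The paired t-test of the study's general methods, paired here by replicate number, gave 0 in all 6 after adjustment. It gave 6, 4, 5, 1, 6 and 10 at an unadjusted p below 0.05 with the fold. Dunnett's test gave 5, 4 and 3 against sham. With slide as a block the count was 1 at 72 h against sham, 0, 3 and 1 for the later contrasts, and 16 for the F-test. Within slide 2, an alternative chosen after seeing the data, 0 were called from 12 to 72 h. The 1 call from 3 to 12 h became 0 with the 75th percentile over probes above background, with 2 groups fitted alone, with the mean of probes and within slide 1 (also chosen after seeing the data), and 2 with the filter on dim probes or a trended, robust prior. Leaving out each array in turn gave 5 to 9, 4 to 7, 3 to 6, 0 to 1, 4 to 10 and 10 to 16, and 24 to 29 for the F-test.

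Same-numbered arrays correlated at -0.40 to 0.26 in their deviations, 6 of 18 pairs above 0.1, and 2 of 12 arrays correlated best with their own number. The numbers were therefore not taken as pairs in the reported limma fit, and the pairing in the t-test above is arbitrary. With a replicate block the count from 3 to 12 h was 0 in place of 1, and the other counts stayed within 1.5 times.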

Other observations

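Markers of enteric glia and neurons and of fat were also read. Of 8 glial and neuronal markers, 1 was called higher at 3 h, beside 3.26% of all genes. Those called lower were 2 at 12 h and 1 at 72 h, beside 4.96% and 4.3%, with S100b at both times (log2 -2.15 and -1.07). The summed level of the 8 was 7.76 to 9.02 in sham, 4.62 to 6.47 at 3 h, 3.87 to 7.31 at 12 h and 5.17 to 9.35 at 72 h. Of 5 fat markers, 0 were called against sham in the limma fit, with a spread between the 72 h arrays given above.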
